A study of Mus musculus with 6 samples.

Results

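The genes described here are the olfactory receptor genes (Olfr) and the vomeronasal receptor genes of both families (Vmn1r and Vmn2r) of the mouse. Their regions were chosen by name: every region of the 3 deposited tables whose assigned gene name starts with Olfr, Vmn1r or Vmn2r, at any distance from the transcription start site (TSS). A region carries the name of the gene whose TSS is nearest. Of 64217 accessible regions in the table of 32 kPa silicone against plastic, 229 (0.357%) carried such a name, 157 of them Olfr, 43 Vmn1r and 29 Vmn2r, for 130 genes. Of 2121 regions listed as more accessible on 32 kPa than on 0.2 kPa silicone, 9 did, and of 2114 listed as more accessible on plastic than on 0.2 kPa, 18 did.

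Open DNA was tagged by a transposase and sequenced (Omni-ATAC-seq) in primary lung fibroblasts of transgenic Col1a1-GFP mice, which were sorted as GFP-positive cells. The cells were grown in medium with 10% serum for 8 days on collagen I, on 0.2 kPa PDMS (a soft silicone), 32 kPa PDMS or tissue-culture plastic, with 2 libraries per culture, each made from 50000 cells. All groups shared the genotype, the collagen coating and the medium; the sources used here give neither the age of the mice nor whether libraries came from separate animals. The comparisons asked how matrix stiffness relates to open chromatin. Plastic is counted here as a stiffer culture, although the sample labels give it no stiffness value. It is also another material than PDMS, so stiffness and material cannot be told apart in comparisons with plastic. A level is the log2 of normalised reads, averaged by the authors within a culture, and a fold is the stiffer level minus the softer one, also in log2. The tables hold 1 mean per culture and no value per library, so precision rests on the authors' false discovery rate (FDR), which measures only the spread between these libraries and may be technical. In a bulk library, more cells with an open region and a more open region per cell cannot be told apart.

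Odorant and pheromone receptors are G protein-coupled receptors of sensory neurons. Olfr proteins sit on the cilia of olfactory neurons, and Vmn1r and Vmn2r proteins on the microvilli of vomeronasal neurons. The genes stand in tandem arrays. An olfactory neuron uses a single Olfr allele, and its remaining Olfr arrays are packed in heterochromatin. Heterochromatin was not measured in the fibroblasts. Transcription factors of the LHX2 and EBF families bind receptor promoters and the enhancers between arrays in the neurons.

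Library identity was checked at marker promoters, read as the strongest region within 1 kb of the TSS. Of 11 fibroblast markers, 10 had such a region, with Vim at 8.82 on 32 kPa and 8.93 on plastic and Col1a2 at 5.94 and 6.15. Of 8 markers of olfactory neurons, 2 had one, Gap43 and Ncam1, which other cells also use, while the defining genes Omp, Adcy3 and Gng13 had no region in the table at all. Regions within 1 kb were found for 0 of 4 epithelial, 1 of 3 endothelial and 0 of 3 leukocyte markers. Of the 5 genes taken as markers of vomeronasal neurons 3 had such a region, Gnao1 (6.36 and 6.23), Gng8 (5.65 and 5.71) and Calr (6.92 and 6.84). Gnao1 and Calr are also used by other cells. Trpc2 and Cnga4 had no region within 1 kb. Regions listed as higher on a stiffer culture were found for the fibroblast markers Col1a2 (both cultures), Col1a1 (plastic) and Thy1 (32 kPa), and also for Ncam1 (both), Gnao1 (32 kPa), Gng8, Krt8 and Kdr (plastic). The part of other cell types in the results was not tested.

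Almost no receptor promoter held an accessible region of the comparison of 32 kPa with plastic. Promoters, gene bodies and arrays were read against its 64217 regions only, so regions open only on 0.2 kPa could be missed. RefSeq promoter windows, 250 bases before to 50 after the start (GRCm38.p6, with the chromosome coordinates of mm10), were available for 1267 protein-coding receptor genes, and 1 of them (0.0789%) shared a base with any accessible region. Among 16225 other protein-coding genes 8943 (55.1%) did. That 1 gene was Vmn2r29. In the RefSeq genes used here it is protein-coding, while the deposited annotation names a noncoding transcript of it. Its window is printed with the window of Gm12258, which lies under the region named Olfr311 that was listed against 0.2 kPa in both comparisons, and with the window of Olfr543, whose strong region lies upstream of it. Capitals mark the bases inside an accessible region, and all windows read 5′ to 3′ on the strand of the gene.
Vmn2r29 (chr7:7278240-7278539, minus strand): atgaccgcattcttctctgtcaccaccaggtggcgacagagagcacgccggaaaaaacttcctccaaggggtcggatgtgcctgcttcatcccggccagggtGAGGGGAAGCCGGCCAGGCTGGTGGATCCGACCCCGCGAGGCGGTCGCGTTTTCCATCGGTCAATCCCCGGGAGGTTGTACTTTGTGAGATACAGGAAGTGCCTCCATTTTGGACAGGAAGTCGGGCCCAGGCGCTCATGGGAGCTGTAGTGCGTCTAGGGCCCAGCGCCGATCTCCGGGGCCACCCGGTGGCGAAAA
Gm12258 (chr11:58846912-58847211, plus strand): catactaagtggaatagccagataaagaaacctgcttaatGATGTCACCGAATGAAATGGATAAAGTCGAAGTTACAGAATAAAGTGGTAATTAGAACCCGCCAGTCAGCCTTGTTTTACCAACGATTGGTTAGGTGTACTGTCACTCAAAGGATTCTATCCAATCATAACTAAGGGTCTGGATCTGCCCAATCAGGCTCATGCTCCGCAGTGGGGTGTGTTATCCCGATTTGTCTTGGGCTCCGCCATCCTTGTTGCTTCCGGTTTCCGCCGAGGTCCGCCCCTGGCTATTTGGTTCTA
Olfr543 (chr7:102477853-102478152, minus strand): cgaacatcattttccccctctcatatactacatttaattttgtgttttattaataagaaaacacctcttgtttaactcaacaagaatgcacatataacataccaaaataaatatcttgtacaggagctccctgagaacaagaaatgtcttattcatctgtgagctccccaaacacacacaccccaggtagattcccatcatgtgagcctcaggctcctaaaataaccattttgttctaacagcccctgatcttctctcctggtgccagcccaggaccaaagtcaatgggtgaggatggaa

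The accessible region at Vmn2r29 (chromosome 7, 7277954 to 7278437) covered 198 bases of the window, at 5.41 on 32 kPa and 5.12 on plastic. This window is 62.3% G and C, against a median of 35.7% over receptor windows and 52.7% over all RefSeq windows. At Gm12258 the region covered 260 bases at levels of 7.09 and 7.14, and although it carries the name Olfr311 it overlapped no base of that gene. The 3 windows were searched on both strands for 5 motifs: AP-1 (TGANTCA), TEAD (GGAATG), homeodomain (TAATTA), EBF (CCCNNGGG) and the TATA box (TATAAA). The windows of Vmn2r29 and Olfr543 held none of these, and Gm12258 held 1 TAATTA. Across receptor windows the TATA box occurred in 39.5% (13.6% of all 32851 windows), TAATTA in 16.6% (5.29%), TGANTCA in 15.9% (7.81%), GGAATG in 14.5% (14.7%) and CCCNNGGG in 4.17% (13.7%). Receptor windows were richer in A and T than the rest, and the part of base composition in these shares was not tested. A match is not a binding site.

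Receptor gene bodies seldom held a region either. Of 1465 protein-coding receptor genes in RefSeq, 12 (0.819%) had a region within the gene, against 14150 of 20435 other protein-coding genes (69.2%). With 10 kb added on each side it was 114 receptor genes (7.78%) against 16554 others (81.0%). Receptor genes are short, with a median of 951 bases against 19048, while the promoter window has 1 length for every gene. Vmn2r genes, which have introns and a median length of 24392 bases, had a region within the gene in 5 of 124 cases (4.03%). By family, 0 of 944 Olfr windows had a region, which allows a share of up to 0.318%. For Vmn1r it was 0 of 206 windows, which allows up to 1.46%, and for Vmn2r 1 of 117. These limits cover counting of genes only. Reads were 51 bases long, and the treatment of reads that match several places is not given. Whether reads were lost in this way at receptor promoters, genes and arrays was not tested.

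**Figure D1:**
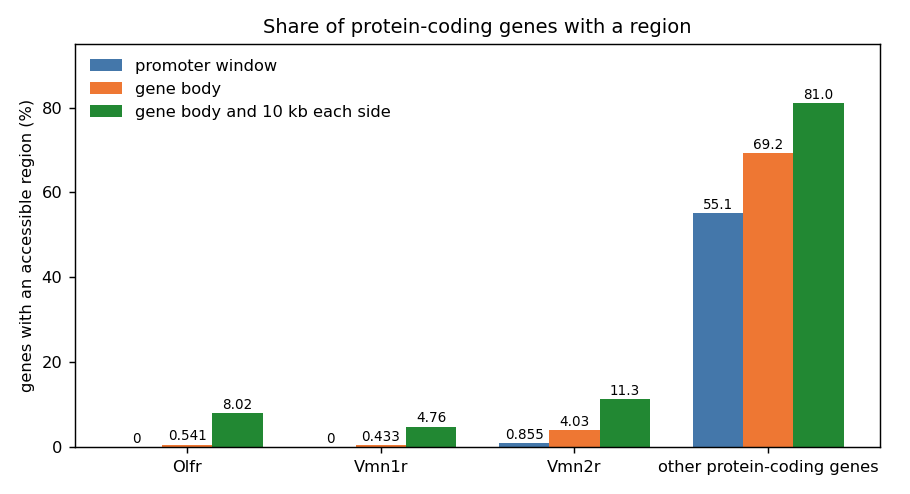
Share of protein-coding genes (vertical axis, %) with an accessible region in the 300-base promoter window, in the gene body, or in the body and 10 kb each side, for the 3 receptor families and all other genes. Promoter shares are 0 for Olfr and Vmn1r and 0.855% for Vmn2r, against 55.1% for other genes.

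Within 1 kb of the TSS the deposited annotation placed 5 receptor-named regions. Besides Vmn2r29 these were Olfr94 (625 bases downstream, in its exon, 4.69 on 32 kPa and 5.37 on plastic) and Olfr15 (736 bases downstream, in its exon, 3.13 and 3.19). Olfr173 had a region 948 bases upstream at 2.63 and 4.16, and Olfr433 one 891 bases upstream at 1.92 and 2.76. Vmn2r29 and Olfr94 stood above the median of all regions (4.17 on 32 kPa, 4.24 on plastic) on both cultures, and the other 3 below it on both.

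Receptor arrays held few accessible regions of any name. Merging receptor genes and pseudogenes less than 200 kb apart into clusters of at least 5 gave 59 clusters with 1925 genes over 51.0 Mb. These held 237 regions, 4.65 per Mb, against 24.1 per Mb in the rest of the annotated chromosome spans. The median cluster had 2 regions, and 19 clusters with 363 genes had none. The largest cluster, 293 genes on chromosome 2 (85.3 to 90.4 Mb), had 3 regions in 5.07 Mb. A cluster of 81 genes on chromosome 7 (20.1 to 23.3 Mb) had none in 3.15 Mb.

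Other arrays were less empty. The cluster of 127 genes on chromosome 9 (37.7 to 40.2 Mb) had the most regions, 17. The 116-gene cluster on chromosome 7 that begins at 102.5 Mb with Olfr543 had 12, among them the Olfr543 region. Of the 237 regions inside clusters 117 carried the name of a non-receptor gene. Those had a median level of 4.42, against 3.71 for the 120 receptor-named ones. Most clusters had few regions, as the plot of regions by cluster size shows, and 10 clusters had 10 or more.

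**Figure D2:**
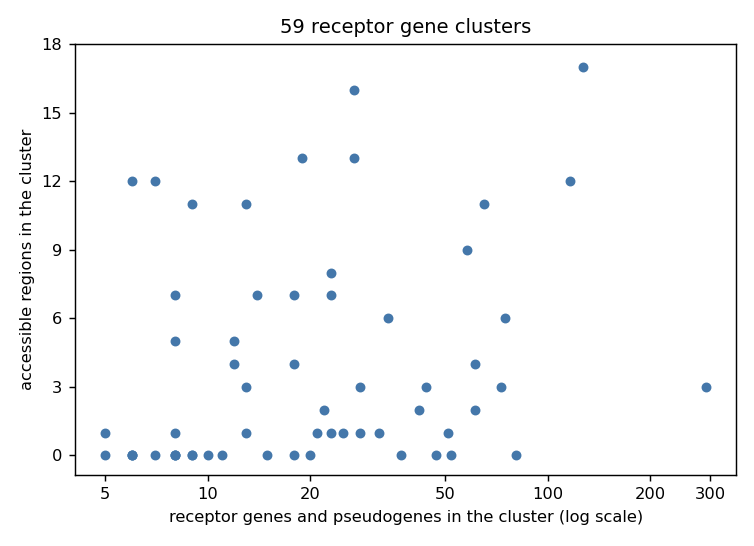
Each point is a receptor gene cluster, with its number of receptor genes and pseudogenes (horizontal, log scale) and its number of accessible regions (vertical). The cluster of 293 genes has 3 regions, and the cluster of 127 genes has 17.

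Receptor-named regions lay mostly between genes. In the deposited annotation 198 of 229 (86.5%) were intergenic, against 38.2% of other regions, and 3 (1.31%) were promoter regions, against 19.6%. The median distance to the TSS was 12.7 kb, and 94 lay within 10 kb. Set on RefSeq gene bodies, 15 regions lay inside a receptor gene, 36 inside another gene and 178 inside neither. For 144 regions (62.9%) the closest gene body was a receptor. The name of a region was thus often not that of the closest annotated feature.

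The 8 regions named Olfr1423 show this. They lay on chromosome 19 between 12002239 and 12037975, 1.16 to 34.4 kb from the Olfr1423 start, in and beside an array of 8 tRNA genes. Of these regions 4 overlapped a tRNA gene (n-TFgaa6, n-TKctt30, n-TLtaa4 and n-TVtac2, for phenylalanine, lysine, leucine and valine), at levels of 4.94 to 6.03 on 32 kPa and 4.78 to 6.03 on plastic. RNA polymerase III transcribes tRNA genes. Only 2 more receptor-named regions overlapped a tRNA gene, named Olfr1368 (chromosome 13) and Olfr750 (chromosome 14). Among all 430 tRNA genes in RefSeq, 151 had a region. The 6 regions named Olfr412 are a second case, since 4 of them lay in introns of Rap1gap2, a GTPase-activating protein gene, at 3.60 to 4.41 on 32 kPa and 3.88 to 4.38 on plastic.

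Of the 5 genes with the most regions, Vmn1r238, Olfr161 and Vmn1r2 stood at chromosome ends. Vmn1r238 had 11 regions on chromosome 18 between 3004515 and 3118933, Olfr161 had 10 on chromosome 16 up to 477 kb from its start, and Vmn1r2 had 7 on chromosome 4. Together with 4 regions of Vmn1r3, 32 of the 229 receptor-named regions (14%) lay in the first 3.5 Mb of a chromosome, against 0.464% of all regions. Mouse chromosomes have the centromere at this end. The strongest receptor-named region of the series was among them. It was an ERVK long terminal repeat (RLTR11A, chromosome 18, 3005630 to 3006001) 118 kb from Vmn1r238, at 8.11 on 32 kPa and 8.12 on plastic. How reads that match several places were placed in these stretches is not given, and their part in such levels was not tested. The other Vmn1r238 regions included 7 at 4.61 or more on plastic. None of the 32 regions overlapped one listed against 0.2 kPa. Only 8 reached the lowest listed level of each stiffer culture. Of all 117 regions in these stretches that reached it, 9 (7.69%) were listed for each. A count of 0 among 8 is near that share.

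After it came, in order of mean level, Olfr543 (7.18 on 32 kPa and 7.17 on plastic), Olfr311 (7.09 and 7.14) and an ERVK element (MLTR11A) 7.38 kb upstream of Vmn1r40 (6.72 and 6.70). A second Vmn1r238 region had 6.45 and 6.35, a region 30.7 kb upstream of Vmn1r77 had 6.25 and 6.40, Olfr1390 had 6.26 and 6.39, and a region named Olfr545 over the pseudogene Gm8556 had 6.36 and 6.16. All 8 differed between 32 kPa and plastic by 0.2 or less. As a whole, receptor-named regions were weaker than the rest, with a median of 3.73 on 32 kPa and 3.89 on plastic, against 4.17 and 4.25 for other regions and 3.94 and 4.03 for other intergenic regions. By family the median mean level was 3.74 for Olfr, 4.17 for Vmn1r and 3.55 for Vmn2r.

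On 32 kPa PDMS, 9 receptor-named regions rose over 0.2 kPa in the authors' deposited table, 8 named Olfr and 1 Vmn1r. Regions overlapping these were 3.93% of the 229, against 3.31% of all regions. The table lists no region higher on 0.2 kPa and no fold under 1, so smaller or opposite changes were not analysed here. By the deposited distances none of the 9 lay within 1 kb of the TSS of the gene it is named for, and 8 were annotated as intergenic, although the Olfr311 region covers the RefSeq start of Gm12258. Of the 9, Olfr1402 had the largest fold in the authors' deposited table, 4.25 on 0.2 kPa and 5.77 on 32 kPa (fold 1.52, FDR = 0.00471). Its region (chromosome 3, 97363418 to 97363702) is an ERVL element, RMER15-int, 47.6 kb from the gene. The Olfr957 region, 7.02 kb upstream of the gene on chromosome 9, had 4.12 on the soft and 5.61 on the stiff silicone, with a fold of 1.49 and FDR = 0.00898 in the authors' deposited table. The strongest 2 in the authors' deposited table were Olfr311 at the Gm12258 promoter, with 6.02 and 7.09 (fold 1.07, FDR = 0.00408), and Olfr543 (chromosome 7, 102479298 to 102479853), with 6.17 and 7.17 (fold 1, FDR = 0.00483). The Olfr543 region lay 1.67 kb upstream of that gene and 9.53 kb from Rrm1, a ribonucleotide reductase subunit gene.

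The remaining 5 reached 5.27 to 5.91 on 32 kPa. Vmn1r199 had the listed region nearest to a receptor start, 1.16 kb upstream, with 3.96 on 0.2 kPa, 5.27 on 32 kPa, a fold of 1.31 and FDR = 0.0348 in the authors' deposited table. At the tRNA gene n-TFgaa6 the region named Olfr1423 had 4.27 and 5.49, and the authors' deposited table gives it a fold of 1.22 (FDR = 0.0301). Olfr455, an ancient SINE (MIRb) in the noncoding gene Gm34752, went from 4.80 to 5.91, and Olfr985 from 4.72 to 5.84, both with a fold of 1.11 (FDR = 0.0207 and 0.0254) per the authors' deposited table. Olfr70, 750 bases past the gene and 1198 bases from Tmem8b, had 4.59 and 5.63, with a fold of 1.05 and FDR = 0.0363 per the authors' deposited table. Over the 9 regions the median fold was 1.11, and over all 2121 listed regions 1.12.

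On plastic, 18 receptor-named regions rose over 0.2 kPa in the authors' deposited table: 14 named Olfr, 2 Vmn1r and 2 Vmn2r. They overlapped 7.86% of the 229 receptor-named regions, against 3.30% of all regions. The median fold was 1.08, against 1.12 over all listed regions, and 17 were intergenic. Olfr311 (6.03 to 7.15, fold 1.12, FDR = 2.65e-04) and Olfr543 (6.12 to 7.15, fold 1.03, FDR = 7.51e-04) had the lowest FDR of the 18 in the authors' deposited table. Their largest fold belonged to Vmn2r13, with an ERVK element in an intron (ERVB4_3-LTR_MM, chromosome 5, 109158727 to 109159104) at 4.49 on 0.2 kPa and 5.85 on plastic, a fold of 1.35 and FDR = 0.00709 per the authors' deposited table. Of the 21 listed receptor-named regions it was the only one inside a receptor gene.

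Repeats made up 7 of the 18. Besides Vmn2r13 and Olfr1402 (fold 1.28, FDR = 0.0146), they were an ERVL element 4.25 kb from Olfr54 (5.06 to 6.27, fold 1.21, FDR = 0.00407) and ERV1 elements near Olfr448 (fold 1.23, FDR = 0.0142) and Olfr31 (fold 1.06, FDR = 0.0146), per the authors' deposited table. LINE-1 elements near Vmn2r12 (4.89 to 5.90, fold 1.01, FDR = 0.0226) and Vmn1r197 (3.76 to 5.01, fold 1.26, FDR = 0.0394) were the others, per the authors' deposited table. All of these repeats are remnants of retrotransposons.

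Regions outside repeats were the remaining 11. Olfr1390 (5.34 to 6.40, fold 1.05, FDR = 0.00682) and Olfr456 (4.91 to 5.94, fold 1.03, FDR = 0.0213) lay 3.22 and 2.84 kb upstream of their genes in the authors' deposited table. In the authors' deposited table Olfr545, at 526 bases from the noncoding gene Gm38627, had 3.85 and 5.12 (fold 1.27, FDR = 0.0407), and Olfr685 had 4.77 and 5.82 (fold 1.05, FDR = 0.0313). The tRNA regions named Olfr1423 rose by 1.07 (n-TKctt30, FDR = 0.0306) and 1.10 (n-TFgaa6, FDR = 0.0422), per the authors' deposited table. The last ones were Vmn1r39 (fold 1.01, FDR = 0.0296), Olfr985 (fold 1.04, FDR = 0.0313) and Olfr957 (fold 1.13, FDR = 0.0443) in the authors' deposited table. Olfr311 and Olfr543, given above, belong here too.

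Both comparisons share the 0.2 kPa libraries, so neither is independent of the other. In both lists were 6 regions (66.7% of the 9 and 33.3% of the 18), those of Olfr311, Olfr543, Olfr985, Olfr1402, Olfr957 and Olfr1423 at n-TFgaa6. Over all listed regions 680 were in both, 32.1% of the list for 32 kPa and 32.2% of that for plastic, so the share of the 18 is near the background. The 3 regions listed only for 32 kPa were also higher on plastic than on 0.2 kPa, by 0.96 to 1.15, without being listed there. The 12 listed only for plastic were higher on 32 kPa than on 0.2 kPa by 0.42 to 0.95, with a median of 0.76. The smallest of these was Vmn2r12, at 4.89 on 0.2 kPa, 5.31 on 32 kPa and 5.89 on plastic. In each of the 21 regions both stiffer cultures lay above the soft one. For a culture that a region was listed for, this was set in advance, since the lists hold no fold under 1. These differences take the stiffer levels from the comparison of 32 kPa with plastic and the soft level from the list, in part over slightly different intervals. The same differences over all listed regions were not computed. Both differences use the same soft libraries. Whether the stiffer cultures differ in these effects is given by the direct comparison of 32 kPa with plastic.

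**Figure D3:**
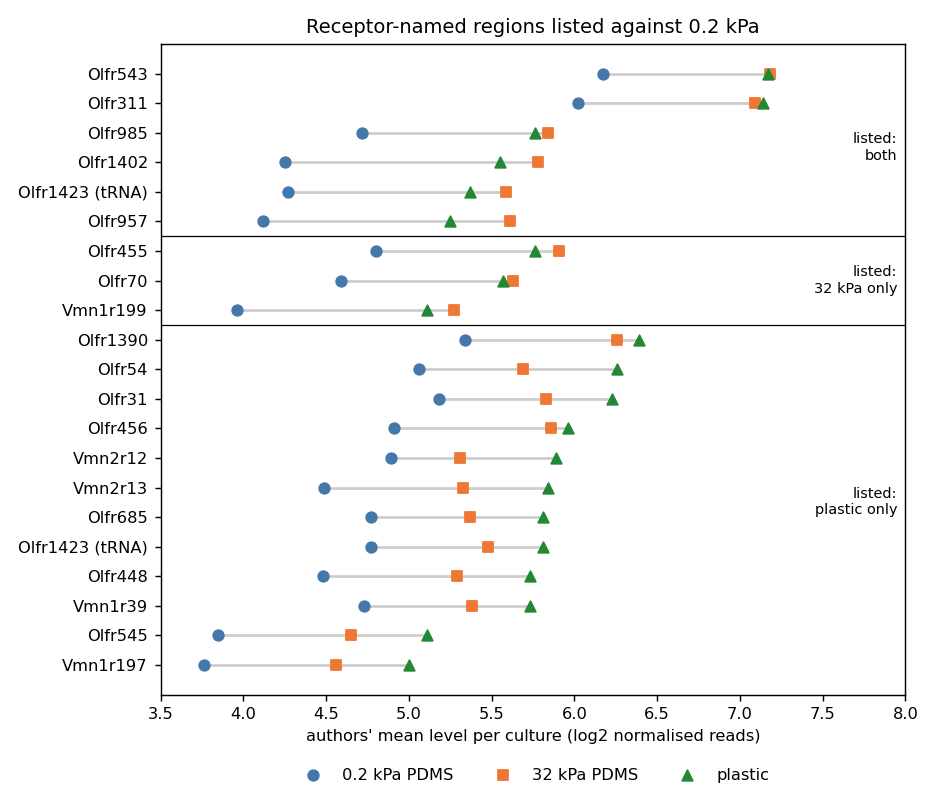
Authors' mean level (log2 normalised reads) of the 21 receptor-named regions listed in either comparison, on 0.2 kPa PDMS (circles), 32 kPa PDMS (squares) and plastic (triangles). The 0.2 kPa level is that of the 32 kPa comparison where the region is in it. Each region lies lowest on 0.2 kPa, by 0.42 at least, and was chosen for a listed rise over 0.2 kPa in either comparison.

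The lowest listed levels were 4.97 on 32 kPa and 4.94 on plastic. They serve here as a floor that was taken from the lists themselves. The sources used here give no threshold of level. This floor selects regions by their level on the stiffer culture, in every set alike. Of the receptor-named regions that reached them, 9 of 43 (20.9%) were listed for 32 kPa and 18 of 46 (39.1%) for plastic. Over all regions that reached them it was 12.5% and 11.7%, and over other intergenic regions 11.6% and 12.7%. Within bands of level on plastic, the listed receptor-named regions were 4 of 20 below 5.5 (8.81% of other regions), 9 of 14 from 5.5 to 6 (15%) and 5 of 12 above (12.7%). In the same bands on 32 kPa they were 1 of 21 (6.51%), 6 of 13 (14.4%) and 2 of 9 (17.7%). No test of these shares was made. Among repeats that reached the level on plastic, 7 of 16 receptor-named ones (43.8%) were listed, against 15.3% of other intergenic ones. Outside repeats it was 11 of 30 (36.7%), against 12.2%. On 32 kPa the order was the other way, with 2 of 14 receptor-named repeats (14.3%, against 8.16%) and 7 of 29 outside repeats (24.1%, against 12.2%).

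No receptor-named region differed between 32 kPa PDMS and plastic at an FDR of 0.05, as was true of all 64217 regions (0%), whose FDR was 1 throughout in the authors' deposited table. At an unadjusted p under 0.05 there were 4 of 229 (1.75%), against 0.576% of all regions. Of these 3 were higher on plastic (0.382% of all regions) and 1 on 32 kPa (0.195%). Higher on plastic, with the authors' unadjusted p from their deposited table, were Olfr827, an LTR element 31.7 kb upstream (1.43 on 32 kPa and 4 on plastic, p = 0.00462), Olfr173 (2.63 and 4.16, p = 0.0339) and Vmn2r86 (2.82 and 4.23, p = 0.0416). Olfr441 was higher on 32 kPa (3.87 and 2.13) in the authors' DiffBind table, where the unadjusted p was 0.0470. They are named here after their values were seen. All 4 were below the median of all regions on both cultures (4.17 on 32 kPa and 4.24 on plastic). The widest gap, at p = 0.0545 in the authors' deposited table, belonged to an intron of Olfr78, a receptor also known outside the nose, at 2.90 on 32 kPa and -0.20 on plastic, which is the lowest plastic level in the table. Olfr78 is likewise named after its values were seen.

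The median difference, plastic minus 32 kPa, was 0.15 over receptor-named regions, with 146 of 229 (63.8%) higher on plastic. It was 0.05 (55.0%) over all regions and 0.08 (57.7%) over other intergenic ones. Vmn2r regions had 0.39, Vmn1r 0.20 and Olfr 0.11. Among the 46 that reached the lowest listed level on plastic the median was 0.11, against 0.02 over all regions of such level. Both sets were chosen by their level on plastic, which by itself favours a positive difference in each. Whether receptor-named regions rise on plastic cannot be read from these values. The quartiles of the 229 differences were -0.17 and 0.50. No test of these medians was made, and no error per region is known.

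**Figure D4:**
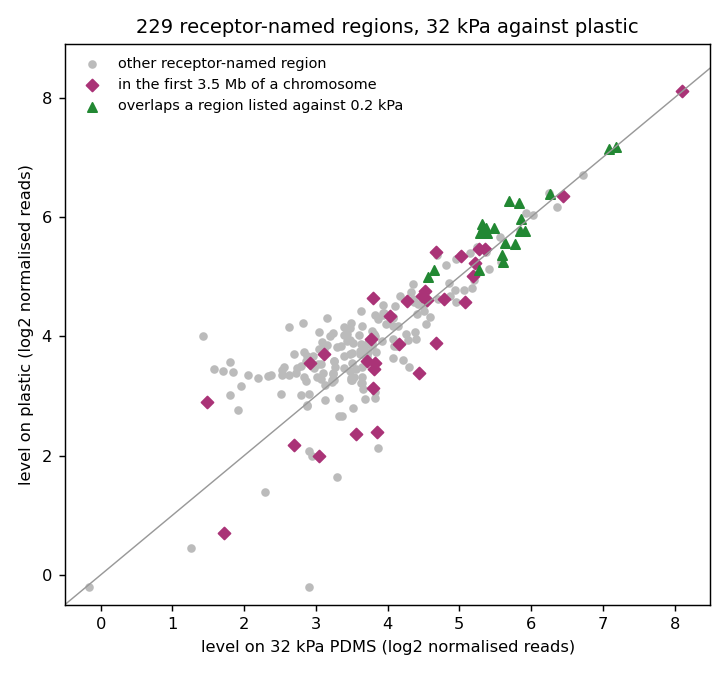
Level on 32 kPa PDMS (horizontal) and plastic (vertical), log2 normalised reads, of the 229 receptor-named regions; the line marks equal levels. Triangles overlap a region listed against 0.2 kPa and diamonds lie in the first 3.5 Mb of a chromosome, among them the highest point at 8.11 and 8.12.

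Repeat annotation was common. Of the 229 regions 85 (37.1%) were annotated as a repeat, against 13.3% of other regions and 20.2% of other intergenic regions. By class they were 44 LTR elements, 18 LINEs, 18 SINEs and 5 others. The ERVK class of LTR elements gave 29 (12.7%, against 2.58% of other intergenic regions), LINE-1 18 (7.86% against 3.39%) and ERV1 10 (4.37% against 1.07%). The MaLR class gave 0, against 3.62%, and 0 of 229 allows a share of up to 1.31%. The 85 regions had 64 different repeat names, and the most frequent, the endogenous retrovirus ERVB4_3-I_MM-int, occurred 5 times at mean levels of 3.06 to 4.01. Repeat regions had a median mean level of 3.69 and the others 3.84. Vmn2r regions were repeats most often (48.3%), followed by Vmn1r (44.2%) and Olfr (33.1%). CpG islands were 4 of the 229 (1.75%), against 2.54% of other regions. The sources used here do not say how reads that match several repeat copies were placed.

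**Figure D5:**
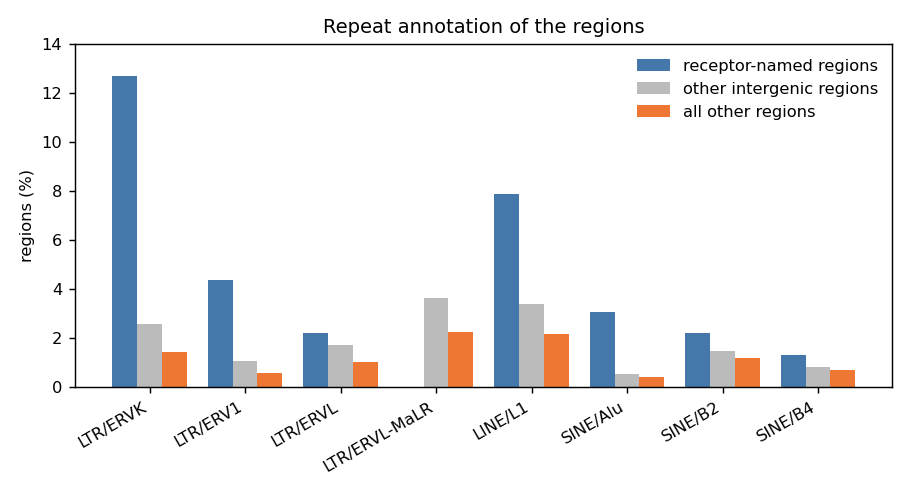
Share of regions (%) annotated with each repeat class, for receptor-named regions, other intergenic regions and all other regions. ERVK elements reach 12.7% of receptor-named regions, against 2.58% and 1.43%.

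Genes that serve receptor signalling and receptor choice were read in the same tables. Of 30 such genes 14 had a region within 1 kb of the TSS and 19 within 10 kb. Several transduction genes of the sensory neurons had none within 1 kb: Gnal and Adcy3 (G protein and cyclase), Cnga2, Cnga4 and Cngb1 (the cyclic nucleotide channel), Ano2 (chloride channel) and Trpc2 (the vomeronasal channel). Others did, namely the G protein subunit genes Gnao1 (6.36 on 32 kPa and 6.23 on plastic), Gng8 (5.65 and 5.71) and Gnb1 (4.24 and 3.97) and the phosphodiesterase gene Pde4a (3.66 and 3.88). The broadly used genes Gnai2, a G protein subunit, and Ric8b, a G protein chaperone, had strong promoters at 7.25 and 7.30 on 32 kPa and 7.09 and 7.28 on plastic. The transcription factor genes Ebf2 (6.11 and 6.13), Ebf3 (5.76 and 5.40), Ebf1 (5.25 and 5.78) and Lhx2 (4.43 and 4.63) and the cofactor gene Ldb1 (5.6 and 5.48) had promoter regions too.

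Of the 30 genes, 25 had a region in the table of 32 kPa against plastic, and 3 had a region listed for 32 kPa and 3 for plastic. Over all 18172 genes with a region the share with a listed one was 10.6% and 10.5%, so these counts are near the background. In the authors' deposited tables the Ebf2 promoter rose on both stiffer cultures, with 5.06 on 0.2 kPa, 6.11 on 32 kPa (fold 1.05, FDR = 0.0213) and 6.14 on plastic (fold 1.07, FDR = 0.0120). A region 36.9 kb from Lhx2 had 4.02 on 0.2 kPa and 5.76 on 32 kPa, with a fold of 1.74 and FDR = 0.00293 per the authors' deposited table. The promoter of Gnao1, a G protein subunit of vomeronasal neurons that other neurons also use, rose there by 1.08 (FDR = 0.0179) in the authors' deposited table. On plastic the promoters of Ldb1 (fold 1.05, FDR = 0.0264) and Gng8 (fold 1.03, FDR = 0.0401) rose in the authors' deposited table. None of the 30 had a region called between 32 kPa and plastic by the authors' DiffBind analysis, and none had an unadjusted p under 0.05.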

How the data were processed

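Per the submitters' processing notes, reads were handled with BWA, Picard, MACS2 and DiffBind on mm10; versions, settings, any transposase shift, library scaling and the treatment of multiply matching reads are not given in the sources used here. Levels and folds are the authors' deposited log2 values (mean normalised reads per culture, and their difference), and the deposited p-values and FDR are the authors' own. Per the file headers the regions were annotated with HOMER. The side named Control was read as the stiffer culture: it equalled the 32 kPa level at 643 of 643 identical intervals, and lay 0.01 to 0.02 above the plastic level at 653. Starts in the 0.2 kPa tables count from 0 and are printed plus 1. A repeated header (1 row) was dropped. Depth per library is unknown.

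Overlap meant at least 1 shared base; the overlap code was tested on simulated intervals. RefSeq genes and promoter windows (GRCm38.p6) were matched by gene ID (229 of 229). No set test was run. Members, lists and the rule for named regions (all regions listed against 0.2 kPa, the 8 strongest, all within 1 kb of a TSS, and the 5 genes with the most regions) were chosen with earlier results of these data known. Clusters, tRNA genes and chromosome ends were added later. Python 3.11.15, pandas 2.3.3, numpy 2.4.6 and matplotlib 3.10.9 were used.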

Additional observations from a re-analysis of the deposited data

How the results depend on the processing

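No paired analysis was possible because the tables hold 1 mean per culture, and for the same reason no library could be left out. With an FDR of at most 0.01, 4 of the 9 receptor-named regions listed for 32 kPa and 5 of the 18 for plastic remained. Within 10 kb of a TSS it was 5 and 8, and with a fold of at least 1.2 it was 4 and 6. Without repeats 11 were left for plastic. Receptor promoter windows with a region within 1 kb numbered 7, against 1 with a region inside. Of all listed regions, 1294 of 2121 for 32 kPa and 1117 of 2114 for plastic lay within 10 kb. Repeats were 220 of the 2114 (10.4%). The shares of all listed regions that pass the stricter FDR and fold were not computed. These settings keep fewer or more regions by their construction. Other chemosensory families had 42 regions, and 23 without Ms4a. The listed share of high enough regions was 20% to 25.7% for 32 kPa and 37.2% to 47.4% for plastic under the 3 alternatives tried (a higher floor, no tRNA genes, no chromosome ends). Clusters of at least 10 genes with gaps up to 100 kb had 3.13 regions per Mb. Counts, shares and levels have no direction that could reverse. The median difference, plastic minus 32 kPa, was 0.15 within 10 kb, 0.12 without repeats and 0.20 without chromosome ends. It was 0.11 in the set chosen by level on plastic. Alternatives on tRNA genes, chromosome ends, clusters, the 1 kb windows and Ms4a were chosen after seeing the data.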

Other observations

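Other chemosensory gene families gave name to 42 regions in all. Of these, 19 carried the names of 11 Ms4a genes, out of 21 protein-coding Ms4a genes, and 3 lay within 1 kb of a TSS. Tas1r names covered 2 regions of 1 gene. For 32 kPa 1 Ms4a region was listed, and for plastic 1 Ms4a and 1 Tas2r region. Among all regions 3.31% and 3.30% overlapped a listed one. Trace amine receptor genes (Taar) gave name to 4 regions at mean levels of 2.73 to 4.46, with 15 protein-coding members in RefSeq, and the nonclassical MHC genes of the vomeronasal organ (H2-M10) to 4 regions at 3.37 to 3.85. Formyl peptide receptor names (Fpr) covered 3 regions, all of 1 gene, with 7.34 the highest level. Bitter taste receptor genes (Tas2r) gave 10 regions for 7 genes, with a median of 4.69, and 1 of them lay within 1 kb of a TSS. In the authors' deposited tables a region 4.34 kb from Tas2r124, an LTR element, rose from 3.88 to 5.44 on plastic (fold 1.56, FDR = 0.00587). Of the Ms4a genes, some of which serve as receptors in a subset of olfactory neurons, Ms4a1 had a region 31.7 kb away that rose from 3.85 to 5.59 on plastic (fold 1.73, FDR = 0.00177), and Ms4a4c one that rose from 4.04 to 5.24 on 32 kPa (FDR = 0.0389), per the authors' deposited tables.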
